A study of Mus musculus with 19 samples.

Results

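The genes described here are 33 genes of the urea cycle and of amino acid breakdown, taken by name from a list of enzymes and 1 carrier that handle nitrogen and amino acids in hepatocytes. All 33 were among the 31053 genes listed in the count table, and all 33 passed the filter on low counts in each of the 3 comparisons, so that no member was lost. Their expression was measured in livers of male C57BL/6 mice (strain C57BL6J in the sample records) given as 6 to 8 weeks old, without the point in time meant. Thioacetamide (TAA), a hepatotoxin that is activated in hepatocytes and causes liver fibrosis, was given in rising doses for 12 weeks. Vehicle mice received PBS (5 libraries) and, as far as the labels say, no vector. The other mice were injected at week 10 of TAA with AAV8 vectors under the hepatocyte-specific TBG promoter and were killed 4 weeks after the injection. In 7 libraries the vector encoded eGFP (AAV-GFP) and in 7 libraries a mixture of vectors encoded miR34b and miR34c (AAV-miR-34b/c), a pair of microRNAs that the study tested against fibrosis. A comparison with vehicle mice therefore holds TAA and a vector together, and their parts cannot be told apart. AAV-miR-34b/c and AAV-GFP mice shared TAA, the serotype and the promoter, and their comparison sets the microRNAs against eGFP.

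Amino acids that are not needed for protein synthesis are broken down mainly in the liver. Aminotransferases and glutamate dehydrogenase pass their nitrogen to ammonia and aspartate, and the urea cycle turns both into urea, which the kidney excretes. The carbon skeletons enter glucose, ketone body and energy metabolism, while methionine also supplies the methyl groups and the sulfur of cysteine and glutathione. Most urea cycle enzymes are richest in the hepatocytes around the portal vein, whereas glutamine synthetase, which removes the ammonia that is left, is found around the central vein.

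Each library was made from the 3′ ends of polyadenylated transcripts, and totals ranged from 2214073 to 5208405 counts. Levels are given as CPM, counts relative to the library total after TMM scaling over all 19 libraries, and were not compared between genes. A member is said to have risen or fallen where the adjusted p of edgeR's quasi-likelihood test, over all genes tested, was under 0.05. The hepatocyte marker *Alb*, which encodes serum albumin, ranged from 20770 to 52190 CPM. In 6 pairs of libraries of a group (vehicle 1 and 4, vehicle 3 and 5, AAV-GFP 1 and 2, AAV-miR-34b/c 1 and 2, 3 and 4, and 5 and 7) the variation beyond counting noise was only 0.0812 to 0.171 as a coefficient of variation, against 0.215 to 0.48 in the other 46 pairs. Why these pairs are so close was not tested. The labels name no animals, so whether the libraries of a pair came from separate animals was not settled. With the libraries of such pairs summed, n was 3 for vehicle, 6 for AAV-GFP and 4 for AAV-miR-34b/c, and edgeR called 0 members in each comparison. Calls were few over all genes in these fits as well, with 1.41% higher and 0.846% lower in AAV-GFP against vehicle, 1.91% and 1.21% in AAV-miR-34b/c against vehicle, and 0.526% and 0.306% in AAV-miR-34b/c against AAV-GFP. In those summed fits 7 members had an unadjusted p under 0.05 for AAV-GFP against vehicle, 6 for AAV-miR-34b/c against vehicle and 6 for AAV-miR-34b/c against AAV-GFP, and the lowest adjusted p was 0.0799, 0.0517 and 0.103. For the members called over all libraries, the fitted log2 fold changes were close to those over all libraries, with *Cbs* at 1.05 in place of 1.02 and *Uroc1* at 0.70 in place of 0.71 in AAV-GFP against vehicle, *Otc* at -0.70 in place of -0.63 in AAV-miR-34b/c against vehicle, and *Mat1a* at 0.83 in place of 0.87 between the vectors. Some members without a call moved further. In AAV-miR-34b/c against vehicle *Cth* was at -0.36 in place of -0.15 and *Gpt* at -0.45 in place of -0.31. Between the vectors *Tdo2* was at -0.57 in place of -0.41. The labels call the libraries biological replicates, and each p-value below counts every library as a sample.

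Between AAV-GFP and vehicle, 5 of the 33 members rose (15.2%) and 1 fell (3.03%). Of all 9522 genes tested in that comparison, 7.54% rose and 5.19% fell. The median log2 fold change was -0.04 over the members and -0.009 over all genes. Between AAV-miR-34b/c and vehicle, 5 members rose (15.2%) and 2 fell (6.06%), beside 12.2% and 9.75% of the 9290 genes tested, with a median of 0.08 against 0.016. With AAV-GFP as the reference, 1 member rose in AAV-miR-34b/c livers (3.03%) and 0 fell, beside 1.95% and 1.42% of 9252 genes, with medians of 0.02 and -0.007. In that comparison 8 members had an unadjusted p under 0.05 in edgeR, DESeq2 called 2 members lower (6.06%, beside 2.62% of all genes) and limma-voom called 4 lower (12.1%, beside 4.25%). Scaling by library size only moved the median of all genes by -0.14 in AAV-miR-34b/c against vehicle and by -0.19 against AAV-GFP, so that 31.1% and 19.1% of all calls were rises, in place of 55.5% and 57.9%. Under that scaling 2 members rose and 7 fell in AAV-miR-34b/c against vehicle (6.06% and 21.2%, beside 7.86% and 17.4% of all genes), and 1 rose and 4 fell against AAV-GFP (3.03% and 12.1%, beside 1.29% and 5.46%), the latter being *Cps1*, *Otc*, *Amdhd1* and *Gldc*. Whether the share of members that fell was below or above that of all genes differed between these fits. The comparisons share libraries, and their values are set side by side below without a test of likeness. In these whole-liver samples, fewer hepatocytes and less RNA per hepatocyte cannot be told apart.

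**Figure D1:**
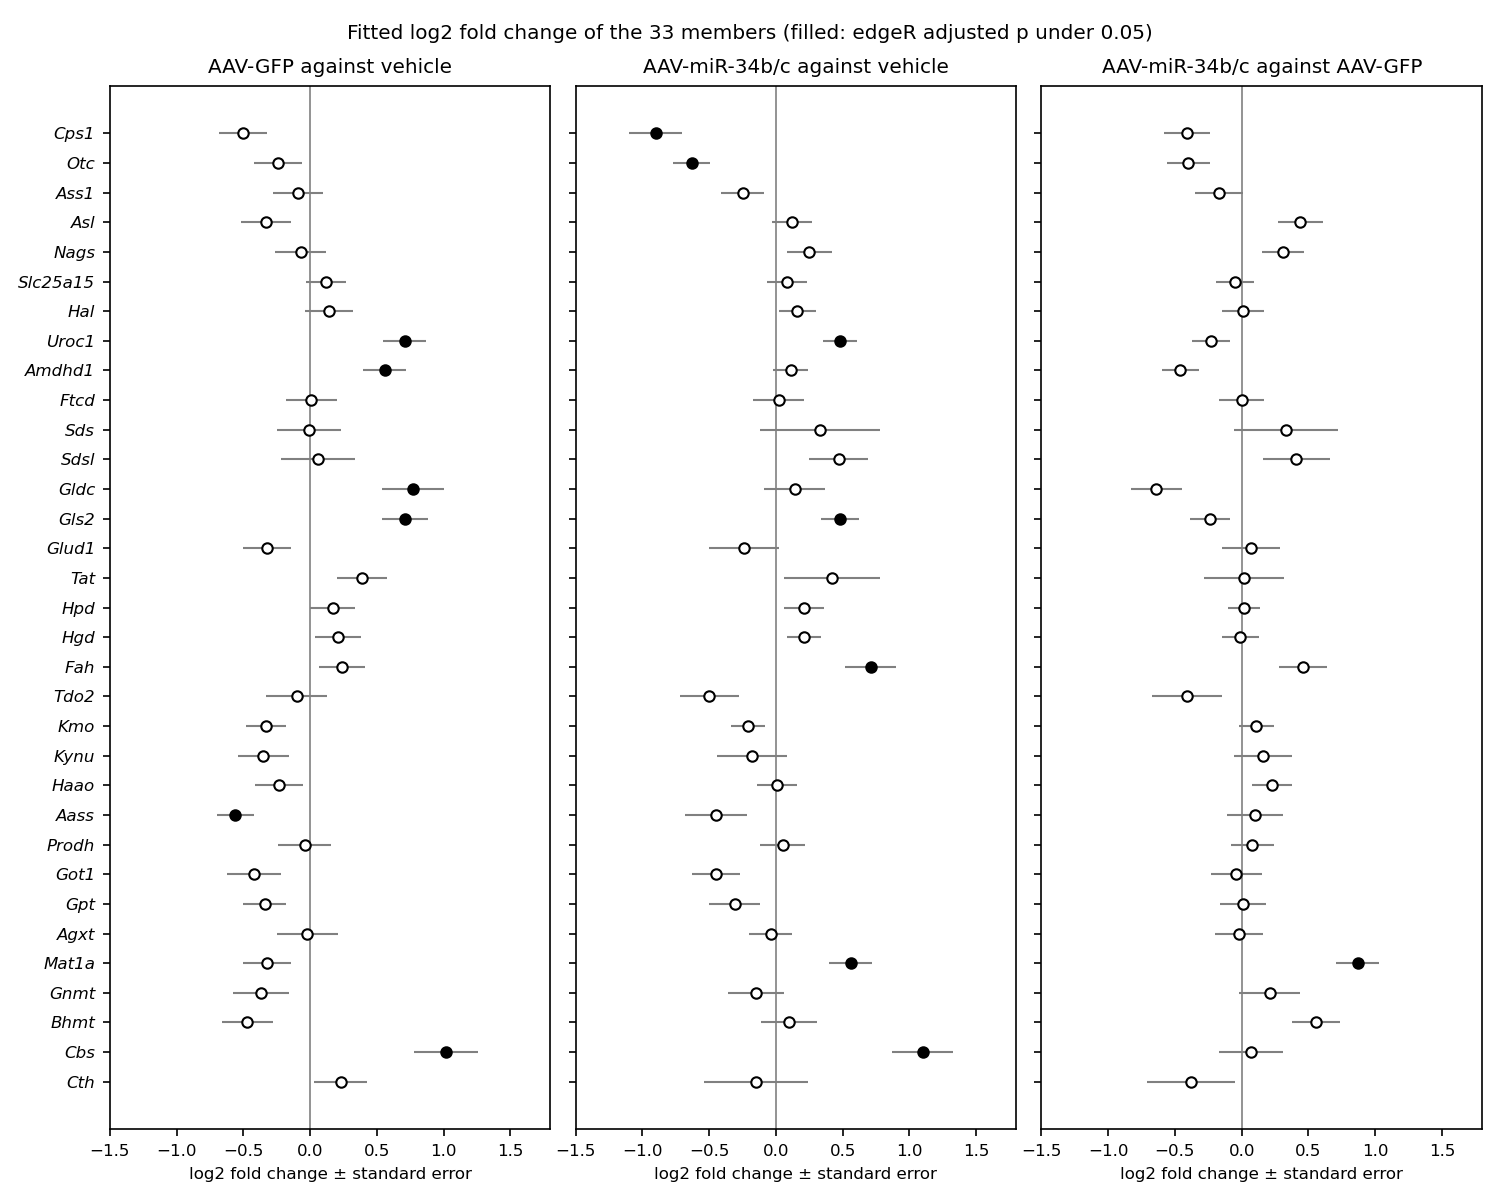
Log2 fold change (x axis) of each of the 33 members (y axis, in order of role) in the 3 comparisons, as fitted by edgeR, with standard errors as bars. Filled points had an adjusted p under 0.05: 6 members in AAV-GFP against vehicle, 7 in AAV-miR-34b/c against vehicle, and 1, *Mat1a*, in AAV-miR-34b/c against AAV-GFP.

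Among the 6 urea cycle genes described, those that fell were *Cps1* and *Otc*, in AAV-miR-34b/c livers against vehicle. *Cps1* encodes carbamoyl phosphate synthetase, which fixes ammonia in mitochondria as the entry step of the cycle (chromosome 1, 67123026 to 67231259, GRCm38). Its vehicle libraries read 1067, 1261, 675, 1006 and 912 CPM. In AAV-GFP livers *Cps1* ranged from 545 to 857 CPM with a median of 703, and in AAV-miR-34b/c livers from 381 to 756 with a median of 484. The lowest vehicle library lay inside the AAV-GFP and AAV-miR-34b/c ranges, and the other 4 vehicle libraries lay above every TAA library. *Cps1* fell in AAV-miR-34b/c livers, by 0.90 ± 0.20 on the log2 scale (standard error, adjusted p = 0.0051, edgeR), to 0.537 of the vehicle level. In AAV-GFP livers its log2 fold change was -0.50 ± 0.18, which did not pass the test (adjusted p = 0.0668, edgeR). DESeq2 (adjusted p = 0.0344), limma-voom and the edgeR fit without vehicle library 3 (0.0342) called it.

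*Otc* encodes ornithine transcarbamylase, which joins carbamoyl phosphate to ornithine in the next mitochondrial step. Vehicle livers had 333, 446, 393, 394 and 433 CPM. AAV-miR-34b/c livers had 211 to 285 CPM with a median of 265, so that all 7 lay below the lowest vehicle library. *Otc* fell there by 0.63 ± 0.14 on the log2 scale (adjusted p = 0.00509, edgeR; p = 0.00126 in the two-sided exact permutation test, the smallest it can give with these group sizes). In AAV-GFP livers 5 of the 7 libraries lay below all vehicle libraries, at 238 to 329 CPM, and libraries 6 and 7 read 474 and 445. The log2 fold change over all 7 was -0.24 ± 0.18 (adjusted p = 0.366), and without AAV-GFP libraries 6 and 7, a setting added once the data had been seen, it was -0.46 ± 0.14 (adjusted p = 0.0195).

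The remaining 4 urea cycle genes passed the test in no comparison over all libraries in edgeR with TMM scaling. *Ass1*, which encodes argininosuccinate synthase, had means of 1337, 1254 and 1118 CPM in vehicle, in AAV-GFP and in AAV-miR-34b/c livers, with SDs of 155, 336 and 240. *Ass1* was called lower in AAV-miR-34b/c against vehicle by limma-voom (log2 -0.36, adjusted p = 0.0279), by library size only (-0.42, 0.0356) and with the clock covariate (-0.48, 0.0361). *Asl*, argininosuccinate lyase, had 207 ± 34.5, 165 ± 45.2 and 224 ± 28.1 CPM (SD, n = 5, 7 and 7). *Nags*, whose product makes the activator that *Cps1* protein needs, lay between 39.4 and 75.4 CPM over all libraries. *Slc25a15*, the carrier that takes ornithine into mitochondria, stayed between 259 and 412 CPM. Adjusted p over these 4 genes was 0.245 to 0.84 in AAV-GFP against vehicle and 0.278 to 0.742 in AAV-miR-34b/c against vehicle.

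**Figure D2:**
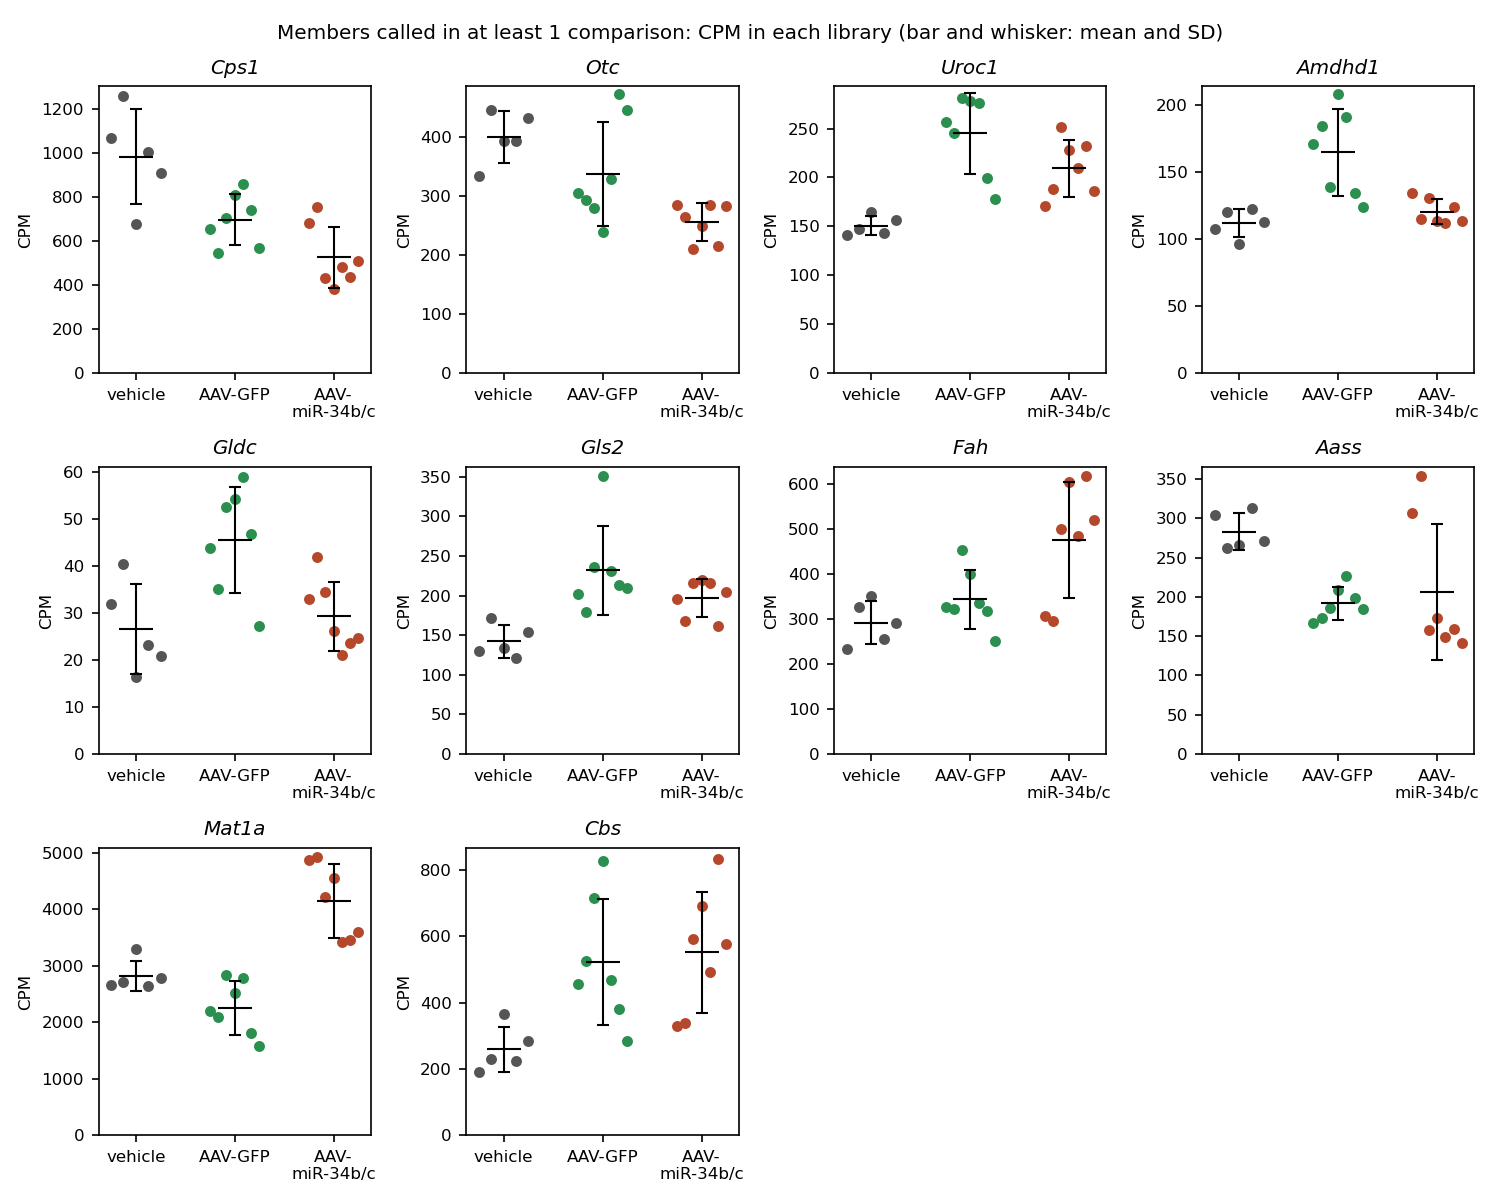
CPM (y axis, from 0) of the 10 members that passed the test in at least 1 comparison. Each point is a library, with the 3 groups (n = 5, 7 and 7) side by side in library order, and the bar and whiskers give the mean and SD. All 7 AAV-miR-34b/c libraries of *Otc* lie below the vehicle libraries, and all 7 of *Mat1a* lie above both other groups.

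Histidine is degraded in 4 steps, and the genes of the middle steps rose in AAV-GFP livers while those of the outer steps did not pass the test. *Uroc1* encodes urocanase, the enzyme of the second step (chromosome 6, 90333284 to 90364551). Vehicle livers had 141, 147, 165, 144 and 156 CPM, the AAV-GFP libraries ranged from 178 to 282 with a median of 257, and the AAV-miR-34b/c libraries from 171 to 252 with a median of 210. No library of either TAA group overlapped the vehicle range. *Uroc1* rose 1.63-fold in AAV-GFP (log2 0.71 ± 0.16, adjusted p = 0.00756, edgeR) and 1.40-fold in AAV-miR-34b/c (0.48 ± 0.13, adjusted p = 0.0168). Both calls held with each library left out in turn. The latter was lost under scaling by library size only and with the replicate number as a block (adjusted p = 0.0693, edgeR).

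*Amdhd1* encodes imidazolonepropionase, the enzyme after urocanase, and was at 107, 120, 96.5, 122 and 113 CPM in vehicle livers. AAV-GFP libraries ranged from 124 to 209 CPM, all above vehicle, with a median of 171. AAV-miR-34b/c libraries lay between 112 and 135 CPM with a median of 115, and 3 of 7 were above the vehicle range. *Amdhd1* rose 1.48-fold in AAV-GFP (log2 0.56 ± 0.16, adjusted p = 0.0305). That call was lost, at adjusted p of 0.0529 to 0.0718, when any of vehicle libraries 1, 3, 4 and 5 or AAV-GFP libraries 1, 2, 4 and 5 was left out, and with the expression of clock genes as a covariate (0.0551), where the log2 fold change was 0.53. Against AAV-GFP, AAV-miR-34b/c livers had a log2 fold change of -0.46 ± 0.14 (adjusted p = 0.0825, edgeR), and 5 of their 7 libraries were below every AAV-GFP library. DESeq2, limma-voom and scaling by library size only called *Amdhd1* lower there, as did the fit without AAV-GFP libraries 6 and 7.

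Of the other histidine genes, *Hal* encodes histidine ammonia lyase, which opens the pathway, and had means of 372, 409 and 412 CPM in vehicle, in AAV-GFP and in AAV-miR-34b/c livers. *Ftcd* encodes the enzyme that passes the last carbon to folate, and its means were 559, 563 and 566 CPM, with SDs of 125 to 150. *Hal* and *Amdhd1* are neighbours on chromosome 10, on opposite strands, with *Hal* ending at 93519304 and *Amdhd1* spanning 93523338 to 93540033, and their annotated exons do not overlap.

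*Gldc* encodes glycine decarboxylase, the subunit of the glycine cleavage system that removes the carboxyl group. Its vehicle libraries read 31.9, 40.5, 16.5, 23.2 and 20.9 CPM, a 2.46-fold spread. AAV-GFP libraries ranged from 27.2 to 59.0 CPM with a median of 46.9, and 5 of 7 lay above all vehicle libraries. AAV-miR-34b/c libraries ranged from 21.2 to 41.8 with a median of 26.3, within or just above the vehicle range. *Gldc* rose 1.71-fold in AAV-GFP (log2 0.77 ± 0.23, adjusted p = 0.0346, edgeR), and the call was lost without any of vehicle libraries 3 to 5 or AAV-GFP libraries 1, 3, 4 and 5 (adjusted p 0.0534 to 0.0957). Against AAV-GFP, its log2 fold change in AAV-miR-34b/c was -0.64 ± 0.19 (adjusted p = 0.0777), which DESeq2 called at adjusted p = 0.0377. *Sds* and *Sdsl*, which encode serine dehydratase and its relative, did not pass the test. *Sdsl* had few reads, with 6.17 to 20.7 CPM. *Sds* ranged from 58.9 to 158 CPM in vehicle and AAV-GFP livers, and its annotated exons overlap those of *Plbd2* on the other strand, which reached 144 CPM, and whether reads of the latter were counted with it is not given in the sources used here.

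*Gls2*, liver glutaminase, frees ammonia from glutamine, while *Glud1*, glutamate dehydrogenase, frees it from glutamate. The 5 vehicle libraries had 130, 172, 134, 121 and 154 CPM of *Gls2*. AAV-GFP libraries ranged from 179 to 351 with a median of 214, all above vehicle, and AAV-miR-34b/c libraries from 161 to 219 with a median of 204, of which 5 were above vehicle. *Gls2* rose 1.63-fold in AAV-GFP (log2 0.71 ± 0.17, adjusted p = 0.0129, edgeR) and 1.39-fold in AAV-miR-34b/c (0.48 ± 0.14, adjusted p = 0.0258). The former held with each library left out, and the latter was lost without vehicle library 1, 3 or 4 or AAV-miR-34b/c library 3 or 4 (adjusted p 0.0515 to 0.082). The latter was also lost under scaling by library size only and with the replicate number as a block (adjusted p = 0.0698, edgeR). Exons of *Gls2* overlap those of *Spryd4* on the other strand, which reached at most 33.2 CPM. *Glud1* had 1013 ± 255, 812 ± 153 and 851 ± 353 CPM (SD, n = 5, 7 and 7) and passed no test over all libraries.

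Promoters are shown for the members that changed between AAV-GFP and vehicle and that the RefSeq promoter table (GRCm38.p6) holds, which is 5 of 6. Each run is the 250 bases before the annotated start, 5′ to 3′ on the gene's strand, with matches to the searched letters in capitals.
Uroc1 (chr6:90333039-90333288, plus strand): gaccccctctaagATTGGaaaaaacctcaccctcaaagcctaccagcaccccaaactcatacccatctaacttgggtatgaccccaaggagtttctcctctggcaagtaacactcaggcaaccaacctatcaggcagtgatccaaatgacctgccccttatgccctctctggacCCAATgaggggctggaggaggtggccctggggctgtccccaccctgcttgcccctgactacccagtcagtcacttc
Amdhd1 (chr10:93540034-93540283, minus strand): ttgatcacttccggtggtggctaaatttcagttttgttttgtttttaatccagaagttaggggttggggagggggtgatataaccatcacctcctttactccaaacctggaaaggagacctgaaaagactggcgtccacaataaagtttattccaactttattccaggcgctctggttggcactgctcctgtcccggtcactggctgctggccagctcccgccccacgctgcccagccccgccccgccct
Gldc (chr19:30175442-30175691, minus strand): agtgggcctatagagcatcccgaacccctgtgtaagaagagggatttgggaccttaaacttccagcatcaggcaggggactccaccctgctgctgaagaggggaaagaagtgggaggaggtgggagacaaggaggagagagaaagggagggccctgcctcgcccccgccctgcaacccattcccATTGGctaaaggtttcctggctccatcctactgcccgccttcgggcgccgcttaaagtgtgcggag
Cbs (chr17:31637206-31637455, minus strand): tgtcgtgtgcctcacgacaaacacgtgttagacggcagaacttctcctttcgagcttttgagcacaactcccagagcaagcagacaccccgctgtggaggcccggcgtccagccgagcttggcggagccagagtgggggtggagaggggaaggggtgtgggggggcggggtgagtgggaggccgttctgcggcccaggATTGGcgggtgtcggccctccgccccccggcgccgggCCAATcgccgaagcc
Aass (chr6:23132987-23133236, minus strand): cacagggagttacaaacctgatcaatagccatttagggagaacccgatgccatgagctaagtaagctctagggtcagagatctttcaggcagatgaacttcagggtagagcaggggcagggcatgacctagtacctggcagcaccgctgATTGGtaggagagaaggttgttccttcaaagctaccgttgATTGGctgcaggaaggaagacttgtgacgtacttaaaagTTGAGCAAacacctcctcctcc
The letters searched, on both strands, were those of the core promoter element bound by TBP, which are TATAAA, and those of the box bound by NF-Y, which are CCAAT. Those of factors with a known role in liver were TTGCNNAA for the C/EBP family, TGACGTCA for the cyclic AMP response element, TGTTTAC for the FOXA family, CAAAGTCCA for HNF4A and TGACNNNGC for the antioxidant response element. The capitals mark CCAAT boxes, at -237 and -76 from the start in *Uroc1*, -66 in *Gldc*, -52 and -15 in *Cbs*, and -101 and -61 in *Aass*. *Aass* also has a C/EBP match at -22, and *Amdhd1* has no match to any of these letters. Promoters were found for 24 members, and 11 of them held CCAAT (45.8%), beside 34.5% of all 27025 promoters in the table. TATAAA was in 4 (16.7%, 13.0% of all), the C/EBP letters in 3 (12.5%, 9.55% of all), the antioxidant response element in 1, *Prodh* (4.17%, 10.1% of all), and the other 3 motifs in 0. The FOXA letters were in 3.09%, the cyclic AMP response element in 1.62% and the HNF4A letters in 0.381% of all promoters. Such a match describes the sequence and is not a measured binding site.

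Tyrosine is broken down in turn by the products of *Tat*, *Hpd*, *Hgd* and *Fah*, and the last of these was the member of the group that changed. *Fah* encodes fumarylacetoacetase, whose loss causes hereditary tyrosinemia (chromosome 7, 84585159 to 84606722). It read 234, 327, 350, 256 and 291 CPM in vehicle livers, 250 to 452 with a median of 326 in AAV-GFP livers, and 295 to 618 with a median of 499 in AAV-miR-34b/c livers. AAV-miR-34b/c libraries 3 to 7, at 483 to 618 CPM, were above every other library of the study, whereas libraries 1 and 2, at 306 and 295, lay inside the vehicle range. *Fah* rose 1.63-fold in AAV-miR-34b/c against vehicle (log2 0.71 ± 0.19, adjusted p = 0.0173, edgeR). The call was lost without vehicle library 1 (adjusted p = 0.054) or 4 (0.0533), under scaling by library size only, and with the replicate number as a block (0.0929). Against AAV-GFP the log2 fold change was 0.46 ± 0.18 (adjusted p = 0.194), and without AAV-miR-34b/c libraries 1 and 2 it was 0.65 ± 0.15 (adjusted p = 0.014). *Hpd* (865, 975 and 994 CPM in vehicle, in AAV-GFP and in AAV-miR-34b/c) and *Hgd* (235, 272 and 270 CPM), the dioxygenases of the pathway, passed no test.

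The 4 tryptophan genes did not pass the test in edgeR with TMM scaling in any comparison over all libraries. *Tdo2* encodes tryptophan dioxygenase, which opens the ring and directs tryptophan into the kynurenine pathway. Its 5 vehicle libraries were close, at 1197 to 1431 CPM, while AAV-GFP libraries spread from 783 to 2236 and AAV-miR-34b/c libraries from 531 to 1312. AAV-GFP libraries 6 and 7 were the highest of all, at 1729 and 2236 CPM. *Tdo2* was called lower in AAV-miR-34b/c against vehicle by limma-voom (log2 -0.73, adjusted p = 0.00365) and by library size only (-0.65, 0.0278), and without library 1 (0.0397) or 2 (0.0457) of AAV-miR-34b/c. *Kmo*, kynurenine monooxygenase, had 279 ± 16.5 CPM in vehicle, 221 ± 34.3 in AAV-GFP and 240 ± 29.7 in AAV-miR-34b/c livers (SD, n = 5, 7 and 7), and its adjusted p against vehicle was 0.132 and 0.238. Limma-voom called *Kmo* lower in both (log2 -0.37 and -0.30, adjusted p = 0.044 and 0.0315), and so did scaling by library size only in AAV-miR-34b/c (-0.36, 0.0288). *Kynu*, kynureninase, ranged from 51.1 to 131 CPM, and *Haao*, the dioxygenase before NAD synthesis, from 363 to 705.

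*Aass* encodes the enzyme of the opening steps of lysine breakdown (chromosome 6, 23072173 to 23132986). Vehicle livers had 304, 262, 266, 313 and 271 CPM, and the AAV-GFP libraries lay between 167 and 227 with a median of 185, all below vehicle. *Aass* fell there to 0.678 of vehicle (log2 -0.56 ± 0.14, adjusted p = 0.0128, edgeR, with p = 0.00126 in the two-sided exact permutation test). The call held with each library left out and was lost where all 3 groups were fitted together. AAV-miR-34b/c libraries formed separate sets, with 307 and 354 CPM in libraries 1 and 2 and 142 to 174 in the other 5. Over all 7 the log2 fold change against vehicle was -0.45 ± 0.23 (adjusted p = 0.157), and without libraries 1 and 2 it was -0.86 ± 0.12 (adjusted p = 5.13e-05). Over all 7, limma-voom, scaling by library size only and the clock covariate also called *Aass* lower there. *Prodh*, proline dehydrogenase, had means of 49.0, 47.4 and 50.5 CPM in the 3 groups and did not pass the test.

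Aminotransferases move amino groups between amino acids and keto acids, and the cytosolic enzymes encoded by *Got1* and *Gpt* are those measured in serum as AST and ALT. No member of the 3 passed the test in edgeR with TMM scaling over all libraries. *Got1* had 266 ± 52.2, 199 ± 59.4 and 194 ± 42.1 CPM in vehicle, in AAV-GFP and in AAV-miR-34b/c livers (SD, n = 5, 7 and 7), and its adjusted p against vehicle was 0.16 and 0.0831. *Got1* was called lower in AAV-miR-34b/c against vehicle by limma-voom (log2 -0.51, adjusted p = 0.0167), by library size only (-0.59, 0.0237) and without AAV-miR-34b/c library 1 (-0.51, 0.041). *Gpt* had 187 ± 33.6, 149 ± 23.5 and 150 ± 40.1 CPM. *Agxt*, which detoxifies glyoxylate and is altered in primary hyperoxaluria, had 127, 125 and 123 CPM, and its AAV-miR-34b/c libraries were closer together (SD 12.6) than its vehicle (SD 32.6) and AAV-GFP (SD 42.5) libraries.

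Methionine metabolism held the member with the greatest fitted change in AAV-GFP livers and the one that differed between the vectors. *Mat1a* encodes the liver methionine adenosyltransferase, which makes the methyl donor S-adenosylmethionine (chromosome 14, 41105035 to 41124412). Its vehicle libraries had 2654, 2713, 3289, 2644 and 2779 CPM. AAV-GFP libraries ranged from 1574 to 2842 with a median of 2190, and AAV-miR-34b/c libraries from 3421 to 4915 with a median of 4206. Every AAV-miR-34b/c library was above every library of both other groups. *Mat1a* rose 1.83-fold against AAV-GFP (log2 0.87 ± 0.16, adjusted p = 0.00477, edgeR, with p = 0.000583 in the two-sided exact permutation test, the smallest it can give). It rose 1.48-fold against vehicle (log2 0.56 ± 0.16, adjusted p = 0.0172). The difference from AAV-GFP was called with each of the 14 libraries left out, and the difference from vehicle was lost without vehicle library 4 (adjusted p = 0.0508) or with the expression of clock genes as a covariate (0.054), where the log2 fold change was 0.43. *Ambp* was the hepatocyte marker that also rose between the vectors, 2.2-fold, and the other 9 of 10 did not pass the test there.

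*Cbs* encodes cystathionine beta-synthase, which commits homocysteine to cysteine synthesis (chromosome 17, 31608894 to 31637238). The vehicle libraries read 191, 229, 366, 223 and 284 CPM. AAV-GFP libraries ranged from 283 to 829 CPM with a median of 468, and all except library 7 were above vehicle. AAV-miR-34b/c libraries ranged from 331 to 835 with a median of 578, of which libraries 1 and 2, at 331 and 340, lay inside the vehicle range and the other 5 above it. *Cbs* rose 2.02-fold in AAV-GFP (log2 1.02 ± 0.24, adjusted p = 0.0102, edgeR) and 2.14-fold in AAV-miR-34b/c (log2 1.10 ± 0.23, adjusted p = 0.00404). Both calls held with each library left out in turn. The vectors did not differ detectably, with a log2 difference of 0.07 ± 0.24 (adjusted p = 0.938).

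*Cth*, whose product makes cysteine from cystathionine in the step after *Cbs*, did not pass the test in edgeR over all libraries. It had 171 ± 58.8 CPM in vehicle, 200 ± 30.2 in AAV-GFP and 154 ± 112 in AAV-miR-34b/c livers (SD, n = 5, 7 and 7). The last group was split, with 321 and 313 CPM in libraries 1 and 2 and 59.9 to 99.9 in the other 5, below every AAV-GFP library. Over all libraries limma-voom called it lower in AAV-miR-34b/c against AAV-GFP (log2 -0.93 ± 0.22, adjusted p = 0.0133). Without libraries 1 and 2 its log2 fold change was -1.19 ± 0.17 against AAV-GFP (adjusted p = 0.000484) and -0.96 ± 0.21 against vehicle (adjusted p = 0.00189). *Gnmt*, which uses up excess S-adenosylmethionine, ranged from 1893 to 5380 CPM, and *Bhmt*, which remakes methionine from homocysteine with betaine, from 649 to 1754. In AAV-GFP against vehicle their log2 fold changes were -0.37 ± 0.21 and -0.47 ± 0.19 (adjusted p = 0.237 and 0.0978, edgeR). Both were called lower there by limma-voom (-0.50 and -0.55, adjusted p = 0.0315 and 0.0189) and without AAV-GFP library 6 (-0.53 and -0.54, adjusted p = 0.047 and 0.0447). *Bhmt* had a log2 fold change of 0.56 ± 0.18 in AAV-miR-34b/c against AAV-GFP (adjusted p = 0.104), with 5 of 7 libraries above every AAV-GFP library.

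**Figure D3:**
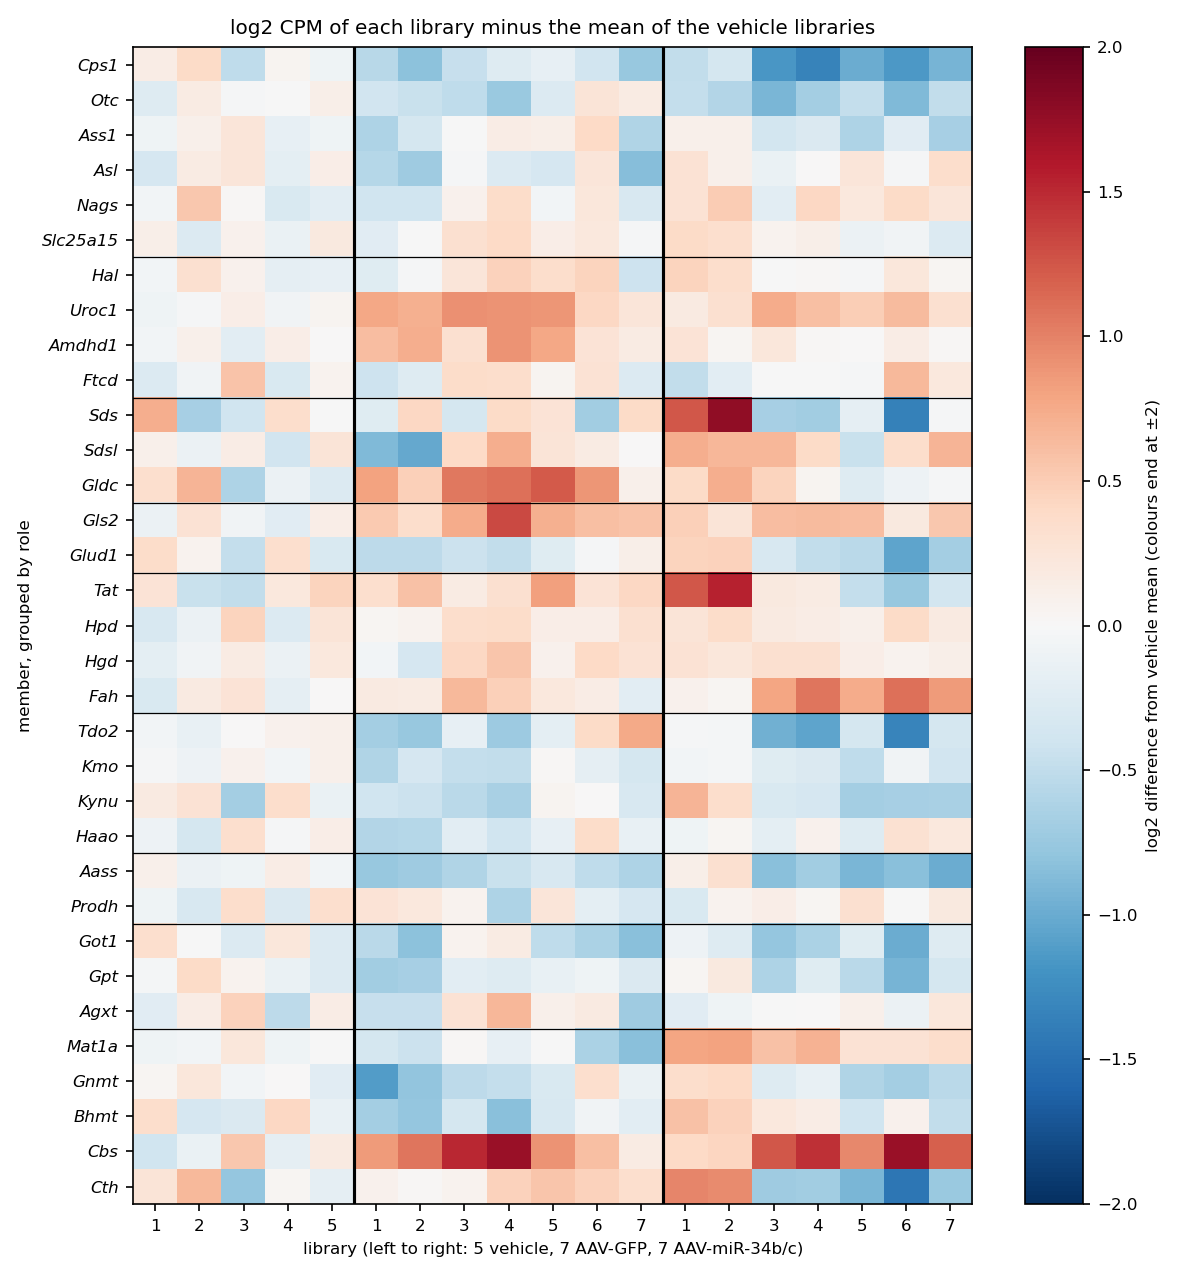
Log2 CPM of each member (rows, grouped by role) in each of the 19 libraries (columns), minus the mean of the 5 vehicle libraries, with red above and blue below vehicle and colours ending at a log2 difference of 2. AAV-miR-34b/c libraries 1 and 2 differ from the other 5 of their group in 19 of 33 rows, with 16 above (48.5%, beside 22.4% of all genes tested) and 3 below (9.09%, beside 23.0%).

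Libraries of a TAA group were not alike in these genes. AAV-miR-34b/c libraries 1 and 2, a close pair, lay outside the range of the other 5 in 19 of 33 members, above it in 16 (48.5%) and below it in 3 (9.09%, *Ftcd*, *Fah* and *Cbs*). Of the 9252 genes tested between the vectors, 22.4% lay above and 23.0% below in the same way. By the ratio of the lowest of the pair to the highest of the 5, the widest gaps above were in *Cth*, *Sds*, *Tat*, *Aass* and *Glud1*. *Tat*, the aminotransferase that starts tyrosine breakdown, had 431 and 527 CPM in these libraries and 107 to 209 in the other 5, and *Sds* had 226 and 327 against 37.7 to 93.6. *Glud1* had 1338 and 1358 CPM against 475 to 793. These values were outside the vehicle range for *Tat* (129 to 247), *Sds* (60.2 to 158) and *Glud1* (712 to 1275). In *Cps1* and *Tdo2* the same libraries were within the vehicle range and the other 5 lower, with *Cps1* at 682 and 756 against 381 to 509 CPM.

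Genes outside the pathway marked the same libraries. The summed CPM of 21 acute phase genes, which the liver raises in inflammation, was 205700 and 207700 in AAV-miR-34b/c libraries 1 and 2, 55090 to 134400 in the other 5, 33550 to 79340 in vehicle and 25870 to 63290 in AAV-GFP libraries. The summed CPM of 8 neutrophil genes was 1972 and 1951 there, 65.8 to 435 in the other 5, 16.9 to 81.0 in vehicle and 14.7 to 74.5 in AAV-GFP libraries. Between the vectors the neutrophil genes *S100a8*, *S100a9* and *Retnlg* rose, 20.5-fold, 19.9-fold and 15.7-fold. Of the acute phase genes 18 of 21 rose in AAV-miR-34b/c against AAV-GFP. Within their group, these libraries also had the lowest summed CPM of 15 clock genes, at 188 and 204 against 217 to 499.9 in the other 5. That sum was 325 to 542 in vehicle and 191 to 385 in AAV-GFP libraries, so that AAV-GFP library 4, at 191, lay between libraries 1 and 2. Against vehicle, the clock activator gene *Arntl* rose from at most 1.22 CPM to 0.32 to 6.97 CPM in AAV-GFP and 0.353 to 8.68 CPM in AAV-miR-34b/c libraries. *Per3*, a repressor of the clock, fell to 0.166 of vehicle in AAV-GFP and 0.214 in AAV-miR-34b/c livers. Between the vectors 0 of the 11 clock genes tested changed in edgeR, in DESeq2 or in limma-voom, each with 2 at an unadjusted p under 0.05. The part of inflammation and of the clock in the values of the members was not tested. The clock covariate used here was the mean log2 CPM of the 15 clock genes. It averages genes that moved in opposite directions against vehicle, such as *Arntl* and *Per3*, and so cannot decide the part of the clock. With libraries 1 and 2 left out, edgeR called 16 members in AAV-miR-34b/c against vehicle, 5 higher and 11 lower, in place of 5 and 2. The shares were 15.2% and 33.3% of members, beside 21.1% and 21.5% of all 9098 genes tested in that fit, so that calls rose in number across all genes as well. The members called lower were *Cps1*, *Otc*, *Ass1*, *Glud1*, *Tdo2*, *Kynu*, *Aass*, *Got1*, *Gpt*, *Gnmt* and *Cth*, and the 5 called higher (*Cbs*, *Fah*, *Mat1a*, *Uroc1* and *Gls2*) were those called with all libraries. Against AAV-GFP the same fit called *Mat1a* (log2 0.75) and *Fah* (0.65) higher, and *Cth* (-1.19), *Gldc* (-0.82), *Cps1* (-0.65) and *Tat* (-0.65) lower, beside 3.47% and 4.08% of all genes. These alternatives were chosen after the data were seen.

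AAV-GFP libraries 6 and 7 were outside the range of the other 5 of their group in 11 members, above it in 6 (*Otc*, *Glud1*, *Tdo2*, *Haao*, *Gnmt* and *Bhmt*) and below it in 5 (*Uroc1*, *Amdhd1*, *Fah*, *Mat1a* and *Cbs*). These shares, 18.2% and 15.2%, were near the 16.9% and 16.4% of all 9252 genes. Without them, 5 members rose and 6 fell against vehicle (15.2% and 18.2%), near the 15.9% and 15.2% of all 9273 genes tested in that fit. The 6 were *Aass*, *Otc*, *Glud1*, *Tdo2*, *Gnmt* and *Bhmt*, with log2 fold changes of -0.61 to -0.46. In AAV-miR-34b/c against AAV-GFP, leaving them out gave *Mat1a* (0.73) and *Bhmt* (0.70) higher and *Gldc* (-0.75) and *Amdhd1* (-0.58) lower, beside 2.43% and 1.73% of all genes.

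**Figure D4:**
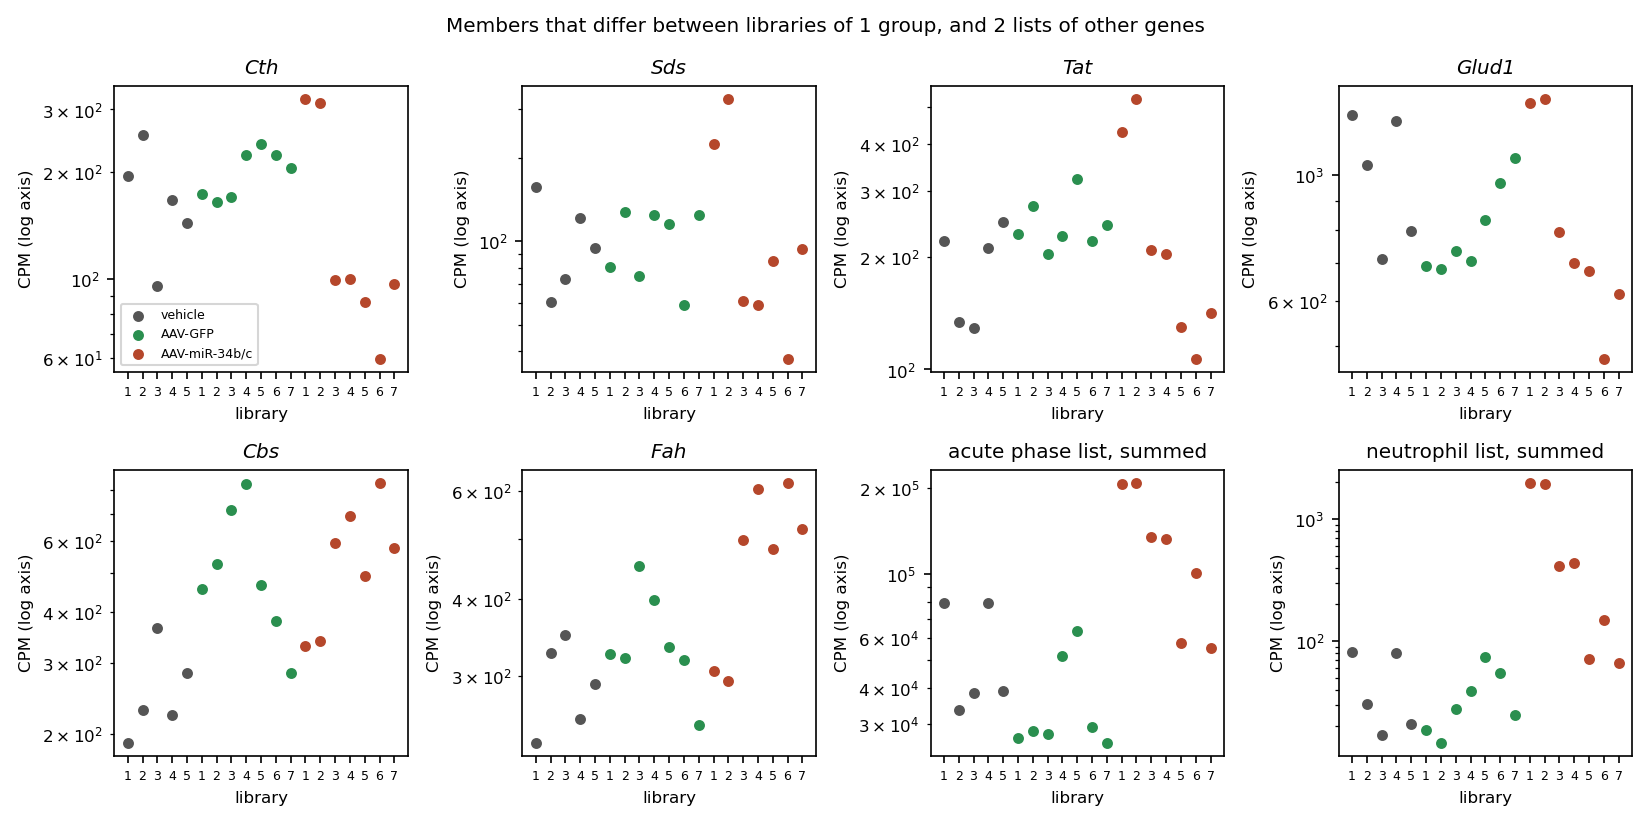
CPM on a log axis (y) in each library (x, numbered within its group) of *Cth*, *Sds*, *Tat*, *Glud1*, *Cbs* and *Fah*, and of the summed acute phase and neutrophil lists. Grey points are vehicle, green AAV-GFP and red AAV-miR-34b/c libraries. AAV-miR-34b/c libraries 1 and 2 are the highest of the study in *Cth*, *Sds*, *Tat* and *Glud1* and in both lists, and in *Cbs* and *Fah* they are lower than the other 5 of their group.

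The delivered miR-34b was compared with the transcripts of the members by its seed, bases 2 to 8, which pair with target transcripts and are in capitals in the mature sequence from RefSeq (chr9:51103610-51103632, minus strand). The other delivered microRNA, miR-34c, was not analysed here. The 7 matching bases were searched in the longest annotated 3′ UTR of each gene, and the windows of 30 bases around the matches in members are shown with the match in capitals.
miR-34b-5p: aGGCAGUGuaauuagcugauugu
Otc (chrX:10316429-10316435, plus strand): ctccaagctaaCACTGCCatctaaaataca
Hal (chr10:93517871-93517877, plus strand): gggggccaaccCACTGCCtgcctaaggtaa
Uroc1 (chr6:90363281-90363287, plus strand): cccctccttccCACTGCCctcccctcgcag
Matches were found in 3 of 33 members (9.09%) and in 14.3% of 20963 genes with a 3′ UTR. The members have shorter 3′ UTRs, with a median of 571 bases against 962 bases. In AAV-miR-34b/c against AAV-GFP the log2 fold change was -0.40 ± 0.16 for *Otc* (adjusted p = 0.22), -0.23 ± 0.14 for *Uroc1* (0.464) and 0.01 ± 0.16 for *Hal* (0.99), and none passed the test in edgeR with TMM scaling. By library size only, *Otc* was called lower (log2 -0.58, adjusted p = 0.0346). *Mat1a*, the member that passed the edgeR test with TMM scaling between the vectors, is without these 7 bases in its 3′ UTR.

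Of 99 further genes of amino acid metabolism, 92 were tested in AAV-GFP against vehicle, with a median log2 fold change of -0.07. Of these 92, 6 rose and 9 fell (6.52% and 9.78%, beside 7.54% and 5.19% of all genes). *Oat*, ornithine aminotransferase, fell from 344 ± 51.8 to 157 ± 18.7 CPM (SD, log2 -1.13, adjusted p = 8.02e-05, edgeR). *Gpt2*, the mitochondrial alanine aminotransferase, fell to 0.499 of vehicle, *Slc1a2*, a glutamate transporter of pericentral hepatocytes, to 0.49 and *Aadat*, which transaminates aminoadipate and kynurenine, to 0.587. The lowest adjusted p among those that rose belonged to *Ethe1* (log2 0.88), a sulfur dioxygenase, *Slc3a2* (0.82), the heavy chain of amino acid exchangers, *Amt* (0.89), which works with *Gldc* in the glycine cleavage system, and *Slc6a9* (1.04), a glycine transporter. Without AAV-GFP libraries 6 and 7 the counts were 14 higher and 25 lower (15.2% and 27.2%, beside 15.9% and 15.2% of all genes).

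In AAV-miR-34b/c against vehicle 9 of 91 further genes rose and 15 fell (9.89% and 16.5%, beside 12.2% and 9.75% of all genes), with a median of -0.12. *Oat* (log2 -1.12), *Aadat* (-1.40), *Slc25a13* (-1.07), the carrier that supplies aspartate to the urea cycle, and *Gpt2* (-0.98) led those that fell, and *Slc25a44* (1.33), a carrier of branched-chain amino acids, *Glyctk* (0.83), *Aldh1l1* (0.59), of folate metabolism, and *Got2* (0.72), the mitochondrial aspartate aminotransferase, led those that rose. Of 20 tested genes of branched-chain amino acid breakdown 6 fell, with a median of -0.39. Of all genes 9.75% fell in that comparison, and 17.4% under scaling by library size only. Without AAV-miR-34b/c libraries 1 and 2, 13 of the further genes rose and 31 fell (14.3% and 34.1%, beside 21.1% and 21.5% of all genes). Between the vectors, 2 of 92 genes rose, *Glyctk* (0.63) and *Glul* (0.78), and 4 fell, *Bckdha* (-0.60), *Csad* (-0.70), *Ethe1* (-0.59) and *Pccb* (-0.58). These shares were 2.17% and 4.35%, beside 1.95% and 1.42% of all genes. *Glul* encodes glutamine synthetase, and was at 633 ± 64.9 CPM in vehicle, 375 ± 104 in AAV-GFP and 646 ± 150 in AAV-miR-34b/c livers (SD, n = 5, 7 and 7). It fell in AAV-GFP against vehicle by 0.75 on the log2 scale (adjusted p = 0.0167, edgeR).

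Transcription factors and enzymes known to regulate amino acid breakdown were also examined. *Hnf4a*, which encodes a nuclear receptor that drives hepatocyte genes, rose from 115 ± 9.78 CPM in vehicle to 209 ± 50.0 in AAV-GFP (log2 0.86, adjusted p = 0.00538, edgeR) and 266 ± 45.4 in AAV-miR-34b/c livers (log2 1.21, adjusted p = 0.0001). *Onecut1* rose in AAV-GFP (1.49) and the mitochondrial deacylase gene *Sirt3* fell in AAV-miR-34b/c (-0.59), both against vehicle, and the other 9 of the 12 genes passed no test in either. Between the vectors 0 of the 12 changed in edgeR (3 at an unadjusted p under 0.05), 0 in DESeq2 and 1 in limma-voom. Of the genes of the amino acid response, *Atf5* rose against vehicle in AAV-GFP (1.36) and AAV-miR-34b/c (1.57), *Chac1* rose in AAV-miR-34b/c (1.56) and *Asns*, asparagine synthetase, fell in AAV-GFP (-2.04), from 1.61 to 17.5 CPM in vehicle to 0.292 to 3.88.

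Markers of liver zones and of other cells moved as well. Beside the counts below, 7.54% of all genes rose and 5.19% fell in AAV-GFP against vehicle. The shares were 12.2% and 9.75% in AAV-miR-34b/c against vehicle, and 1.95% and 1.42% between the vectors. Of pericentral genes 6 of 16 fell and 1 rose in AAV-GFP against vehicle, and 8 of 15 fell in AAV-miR-34b/c. *Oat*, *Glul* and *Slc1a2* are on this list as well. The summed CPM of the 17 pericentral genes was 5783 to 6311 in vehicle, 2779 to 5820 in AAV-GFP and 3790 to 4681 in AAV-miR-34b/c libraries. Of 13 periportal genes 4 rose in AAV-GFP, and 4 rose and 1 fell in AAV-miR-34b/c. The summed CPM of the 10 hepatocyte markers was 93600 to 106900 in vehicle, 79810 to 99690 in AAV-GFP and 78080 to 119800 in AAV-miR-34b/c libraries. In edgeR 0 of these 10 changed in AAV-GFP against vehicle (1 at an unadjusted p under 0.05), and 0 changed in DESeq2 (2) and in limma-voom (3). Of 12 macrophage genes 5 fell in AAV-GFP against vehicle, with a median log2 fold change of -0.62. Between the vectors, 3 of 13 periportal genes, *Etnppl* (log2 -2.11), *Hsd17b6* (-1.84) and *G6pc* (-1.18), fell and 1, *Ctsc* (1.21), rose, 2 of 8 stellate cell genes tested, the collagen genes *Col1a1* (-1.92) and *Col3a1* (-1.46), fell, and 2 of 11 macrophage genes tested, *Cd5l* (0.86) and *C1qb* (0.94), and 1 of 8 endothelial genes tested, *Lyve1* (1.06), rose, with list medians of 0.39 and 0.16. Other genes of these lists were lower than in vehicle in AAV-miR-34b/c livers, namely *Adgre1* (0.43 of vehicle) and *Timd4* among macrophage genes and *Cdh5* (0.422 of vehicle) among endothelial genes. Of 10 hepatic stellate cell genes tested 4 rose in AAV-GFP against vehicle, among them *Col1a1*, 5.36-fold, while the summed CPM of the list was 374 to 564 in vehicle, 426 to 539 in AAV-GFP and 275 to 491 in AAV-miR-34b/c libraries. The summed CPM of 8 cholangiocyte genes was 23.6 to 45.2 in vehicle, 61.5 to 107.8 in AAV-GFP and 53.9 to 124.6 in AAV-miR-34b/c libraries. The part of these cell types and zones in the members' values was not tested.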

How the data were processed

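Per the labels, libraries were prepared from 100 ng of total liver RNA with a kit that primes at the 3′ ends of mRNA, while the study's methods give a different amount. The authors sequenced single-end reads of 100 bases, and deposited raw counts per gene. Their processing notes name STAR and mm10 (GRCm38). The annotation, the use of strand and any handling of molecular identifiers are not given in the sources used here. Symbols and positions came from GENCODE release M21, which held 30934 of the 31053 listed gene IDs, and sequences from RefSeq (GRCm38.p6).

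Counts were tested in R 4.3.3 with edgeR 4.0.16 (quasi-likelihood test, TMM scaling, filterByExpr at minimum count 10 and total 15, prior count 2), separately for each pair of groups, with Benjamini-Hochberg adjustment over all genes tested and a threshold of 0.05. DESeq2 1.42.0, limma 3.58.1 (voom with sample weights), other scalings, no filter, a fit of all 3 groups, a clock covariate, a replicate block and leaving out each library were alternatives. Exact permutation tests on mean log2 CPM were two-sided. Scripts were tested on simulated data. Totals of 2214073 to 5208405 counts per library set the precision of low genes. The labels call the libraries biological replicates without naming animals, so p-values measure the spread between libraries.

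The members and the gene lists were chosen with earlier results of these data known. All 33 members described are named, and 1 further gene of the module is not reported here, although it was kept in every fit. Of other pathway genes, regulators and amino acid response genes, at most 4 called genes per direction, ranked by adjusted p, are named, with *Glul*, named between the vectors, also given against vehicle, and of cell type lists mainly counts and summed levels are given.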

Additional observations from a re-analysis of the deposited data

Results flagged for a closer look

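Of 99 sets of values, made up of 33 members in 3 groups, 4 held a library whose gap to the nearest other library was large for the range of its group by Dixon's criterion. By chance about 1 in 20 such sets, or 4.95 here, would be picked out. *Nags* was lowest in AAV-miR-34b/c library 3, at a log2 CPM of 5.51, with the next at 5.92. *Sdsl* was lowest in AAV-miR-34b/c library 5, at 3.29, with the next at 4.05. *Gls2* was highest in AAV-GFP library 4, at 8.46, with the next at 7.89, and its rise against vehicle was called without that library. *Mat1a* was highest among vehicle livers in library 3, at 11.68, with the next at 11.44.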

How the results depend on the processing

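No member that passed a test reversed its direction in that comparison under any alternative run. Over all alternatives, the 10 members with a call gave 720 values, of which 633 kept direction and side of the threshold, 46 lost a call, 28 gained one and 13 reversed, the last in comparisons where the member had not passed.

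For members in AAV-GFP against vehicle, 5 higher became 0 with close pairs summed and 3 to 5 with 1 library left out, and 1 lower became 2 with DESeq2, 5 with limma-voom, 0 with all 3 groups in 1 fit, 0 with close pairs summed, 6 without AAV-GFP libraries 6 and 7, and 1 to 3 with 1 library left out. With DESeq2 6.06% of members were lower, near the 6.74% of all genes. With limma-voom 15.2% were lower, near the 14.0% of all genes. In AAV-miR-34b/c against vehicle, 5 higher became 2 by library size only, 0 with close pairs summed and 2 to 5 with 1 library left out, and 2 lower became 7 by library size only, 7 with limma-voom, 0 with close pairs summed, 4 with the clock covariate, 11 without AAV-miR-34b/c libraries 1 and 2, and 2 to 4 with 1 library left out. With limma-voom 21.2% of members were lower there, near the 20.9% of all genes, and 15.2% were higher, beside 20.5%. Shares of all genes are not given here for the clock covariate, the fit of all 3 groups or the fits with 1 library left out. Those counts do not single out the members. Against AAV-GFP, 1 higher became 2 with limma-voom, 2 without AAV-miR-34b/c libraries 1 and 2, 2 without AAV-GFP libraries 6 and 7, and 0 with close pairs summed, and 0 lower became 4 by library size only, 2 with DESeq2, 4 with limma-voom, 4 and 2 without those library pairs, and 0 to 2 with 1 library left out.

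For further pathway genes in AAV-GFP against vehicle, 6 higher became 11 with limma-voom, 2 with close pairs summed and 14 without AAV-GFP libraries 6 and 7, and 9 lower became 20, 3 and 25, with 5 to 15 with 1 library left out. The limma-voom shares were 12.0% higher and 21.7% lower, beside 14.2% and 14.0% of all genes. In AAV-miR-34b/c against vehicle, 9 higher became 4 by library size only, 1 with close pairs summed and 3 to 11 with 1 library left out, and 15 lower became 29 by library size only, 28 with limma-voom, 4 with close pairs summed, 31 without AAV-miR-34b/c libraries 1 and 2, and 9 to 20 with 1 library left out. The 29 and 28 lower were 31.9% and 30.8%, beside 17.4% and 20.9% of all genes, so calls rose across all genes as well. Against AAV-GFP, 2 higher became 0 by library size only, 5 with limma-voom, 0 with close pairs summed and 0 to 3 with 1 library left out, and 4 lower became 2 without the filter, 16 by library size only, 13 with limma-voom, 0 with close pairs summed, 2 with the clock covariate, 11 without AAV-miR-34b/c libraries 1 and 2, and 1 to 3 with 1 library left out. The 16 and 13 lower were 17.4% and 14.1%, beside 5.46% and 4.25% of all genes.

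With the replicate number as a block, members in AAV-GFP against vehicle were 6 higher and 6 lower and further genes 15 and 25, members in AAV-miR-34b/c against vehicle 2 and 2 and further genes 4 and 9, and members against AAV-GFP 1 and 0 and further genes 0 and 0. The shares of all genes called with this block are not given here, so these counts do not single out the members. Same-numbered libraries correlated at -0.0947 to 0.235, -0.256 to 0.296 and -0.313 to 0.224 in the 3 comparisons, and 2 of 5, 0 of 5 and 1 of 7 numbers fitted best with their own. Whether same-numbered libraries share more than the number was not settled by these values.

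Members without a call in any comparison gave 1656 values, of which 183 reversed. Without AAV-miR-34b/c libraries 1 and 2, *Sds* was at -0.61 in AAV-miR-34b/c against vehicle and -0.60 against AAV-GFP, in place of 0.33 and 0.33, and *Tat* at -0.26 and -0.65, in place of 0.42 and 0.02. Among members with a call, in AAV-miR-34b/c against vehicle, by library size only, *Amdhd1* was at -0.03 and *Gldc* at -0.03, and *Gldc* was at -0.04 without AAV-miR-34b/c libraries 1 and 2. Against AAV-GFP *Aass* was at -0.13 by library size only, -0.2 with limma-voom, -0.17 with the clock covariate, -0.31 without AAV-miR-34b/c libraries 1 and 2 and -0.09 to 0.17 with 1 library left out. *Cbs* was at -0.11 by library size only, -0.13 without AAV-GFP libraries 6 and 7 and -0.05 to 0.21 with 1 library left out. The alternatives with close pairs summed and without named library pairs were chosen after seeing the data. The causes were not tested.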
